A study of Mus musculus with 21 samples.

Results

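The 8 genes described here, Cep192, Pcnt, Nedd1, Numa1, Tubg1, Cdk5rap2, Cep152 and Haus6, encode proteins of acentriolar microtubule organizing centres and of spindle poles. They were chosen by name, by a rule that uses no measured value but was set with earlier results of these data known, and each matched 1 Ensembl identifier among the 54232 genes of the count table. All 8 passed the requirement of a count above 0 in at least 3 libraries, and they are therefore 8 of the 22383 genes tested in the Spo11-Cre background and 8 of the 23225 genes tested over all libraries.

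Poly(A) RNA was measured in 21 libraries, each prepared from 3 fully grown mouse oocytes at the germinal vesicle stage, which had not yet resumed meiosis. The study varied the dose of Kif11, the gene of the kinesin-5 motor that slides antiparallel microtubules apart, in mice on a C57BL/6 background. The oocytes came from females aged 3 to 4 months, 48 h after an injection of equine chorionic gonadotropin or CARD HyperOva. Which of these was used for which library is not stated. Each mouse gave 1 or 2 of the libraries.

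Kif11 wt/fl oocytes (4 libraries) carried a wild-type and a floxed allele without Cre and served as the control, so that the control also carries a floxed allele. Kif11 wt/fl Spo11-Cre oocytes (5 libraries) had the same alleles together with a Cre driven by the meiosis-specific Spo11 promoter, which acts early in meiotic prophase. Kif11 fl/del oocytes (4 libraries) carried a floxed and a constitutively deleted allele without Cre, and Kif11 fl/del Spo11-Cre oocytes (4 libraries) carried these alleles together with Spo11-Cre. The last 4 libraries were from fl/fl oocytes, which are homozygous for the floxed allele, with Cre under a promoter of the growing oocyte, Gdf9-Cre in 2 libraries and Zp3-Cre in the other 2. How these 4 were prepared is given by their labels only, since the study's methods describe the other 17. No Cre-free fl/fl group was analysed here, so that in the fl/fl comparisons the driver and the loss of Kif11 cannot be told apart. Any difference in preparation or sequencing between these 4 libraries and the other 17 cannot be told apart from them either. Libraries of a group are not all from separate animals, and p-values therefore measure the spread between these libraries, which may in part be technical. The library names hold 3 prefixes in wt/fl Spo11-Cre and 2 in each other group. No label says whether a prefix marks a mouse.

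Mouse oocytes lose their centrioles before they are fully grown and build the meiotic spindle from many small microtubule organizing centres, which later cluster at the poles. Gamma-tubulin (Tubg1) nucleates microtubules at these centres, Nedd1 recruits the gamma-tubulin ring complex, and Pcnt, Cep192 and Cdk5rap2 form the pericentriolar scaffold that holds it. Haus6 belongs to the augmin complex, which branches new microtubules from existing ones, Numa1 focuses microtubule minus ends at the poles together with dynein, and Cep152 is best known for recruiting Plk4 to centrioles, which these cells lack.

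The total count per library lay between 7205010 and 18454549. The 12 oocyte markers examined (Zp3, Gdf9, Nobox and others) together held between 24669 and 31519 counts per 1000000 counts (CPM) in every library. The 16 follicle cell markers together held between 72.0 and 126 CPM over all libraries, largely from Cyp19a1 and Nr5a2, while Foxl2, Ptx3 and Tnfaip6 were at 0 in all of them. The 7 blood and immune cell markers held between 18.6 and 38.5 CPM, largely from Pecam1, with Hbb-bs and Hba-a1 at 0 in all libraries. Kif11 itself, counted over all exons, was between 23.8 and 43.2 CPM in wt/fl, 17.6 and 30.5 CPM in wt/fl Spo11-Cre, 7.49 and 14.6 CPM in fl/del, and, lowest, 1.08 and 2.70 CPM with both the del allele and Spo11-Cre. The level was 5.11 and 4.90 CPM with Gdf9-Cre and 7.95 and 4.27 CPM with Zp3-Cre for replicates 1 and 2. Kif11 was thus lower than in wt/fl in all libraries of the fl/del, fl/del Spo11-Cre and fl/fl groups, whereas wt/fl Spo11-Cre overlapped wt/fl. These counts include the last exon, of which the study reported residual reads with Gdf9-Cre and Zp3-Cre. Over the first exon, its proxy for full-length transcripts, the study reported depletion comparable to that in fl/del Spo11-Cre.

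Compared per length, as transcripts per 1000000 (TPM), Nedd1 was the most abundant of the 8 transcripts and Cep152 the least. Nedd1 had 136 ± 20.9 TPM (SD, n = 21), Tubg1 57.3 ± 9.18 TPM and Pcnt 35.4 ± 5.26 TPM. The next 4 were Haus6 with 9.17 ± 1.54 TPM, Cep192 with 7.22 ± 1.26 TPM, Cdk5rap2 with 6.57 ± 1.04 TPM and Numa1 with 5.48 ± 1.63 TPM, and Cep152 had 3.29 ± 0.808 TPM. The abundant transcripts thus included the gamma-tubulin gene and that of its recruiting factor.

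Nedd1 exceeded Tubg1 in all 21 libraries, by a median of 2.41 times, and Tubg1 exceeded Pcnt in 20 of 21. Pcnt exceeded Haus6 in all 21, by a median of 3.76 times. Among Haus6, Cep192, Cdk5rap2 and Numa1, neighbours in this order could not be separated, since each exceeded the next in 15 to 17 of the 21 libraries only. Among the 22281 genes with a TPM above 0 in wt/fl, the mean TPM of Nedd1 was higher than that of 95.1%, that of Tubg1 higher than that of 89.5%, and that of Cep152 higher than that of 56.8%.

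**Figure D1:**
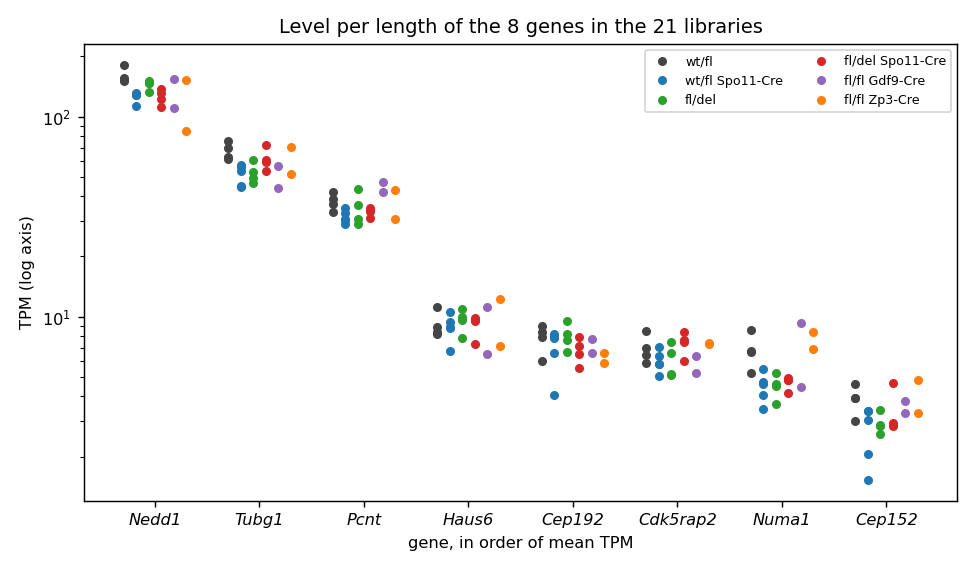
TPM (vertical axis, log scale) of the 8 genes in order of mean TPM, with 1 point per library coloured by genotype and Cre driver. Nedd1 is on top and Cep152 at the bottom in each of the 21 libraries, while Haus6, Cep192, Cdk5rap2 and Numa1 overlap.

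The counts behind these levels differed as widely as the levels. Nedd1 had between 1132 and 4254 counts per library and Pcnt between 1222 and 3620, whereas Cep152 had between 46 and 156 and Numa1 between 112 and 347. Over the 21 libraries, the SD of the CPM was 13.8% of the mean for Nedd1, 14.5% for Tubg1, 14.8% for Pcnt, 24.2% for Cep152 and 28.3% for Numa1. The intervals of the fold changes given below are accordingly narrow for Nedd1 and wide for Cep152.

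Nedd1 (ENSMUSG00000019988) lies on the minus strand of chromosome 10 (GRCm38), from 92684746 to 92722420, and Pcnt (ENSMUSG00000001151) on the same chromosome and strand, from 76351263 to 76442786. Tubg1 (ENSMUSG00000035198) lies on the plus strand of chromosome 11, from 101119938 to 101126419, and Numa1 (ENSMUSG00000066306) on the plus strand of chromosome 7, from 101934111 to 102014964. Cdk5rap2 (ENSMUSG00000039298) and Haus6 (ENSMUSG00000038047) are both on the minus strand of chromosome 4, from 70216856 to 70410443 and from 86578855 to 86612055. Cep152 (ENSMUSG00000068394) is on the minus strand of chromosome 2, from 125563088 to 125625113, and Cep192 has the identifier ENSMUSG00000024542. The exons of other annotated genes overlap 6.38% of the exonic bases of Nedd1, 4.06% of those of Pcnt, 2.81% of those of Cdk5rap2 and 1.01% of those of Numa1, and none of those of the other members, so that reads there cannot be assigned with certainty.

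Tubg1 has a close paralogue, Tubg2, which encodes a second gamma-tubulin and lies next to it on chromosome 11. The first 90 coding bases of both are shown, because counts of the 2 genes can be told apart only where their sequences differ. In the GENCODE M21 transcripts on GRCm38, these bases begin in coding exons at chr11:101120194-101120242 and chr11:101156120-101156168, both on the plus strand, and the remainder comes from the following exon. Capitals mark the 11 positions at which the paralogues differ.
Tubg1: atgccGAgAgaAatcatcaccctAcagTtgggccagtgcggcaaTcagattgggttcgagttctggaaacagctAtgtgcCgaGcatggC
Tubg2: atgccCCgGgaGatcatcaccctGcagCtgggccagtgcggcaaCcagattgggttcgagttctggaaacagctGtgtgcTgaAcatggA

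Over their whole coding sequences of 1353 bases, Tubg1 and Tubg2 were identical at 1262 positions (93.3%) without a gap. The longest identical stretch was 164 bases, and 15 windows of 150 bases, the length of a read, were identical in both. Only uniquely mapped reads were counted, so that reads within such windows could be lost from both genes. Whether they were, given that reads were paired, was not tested. Tubg2 was the more abundant of the pair in wt/fl, with a mean of 169 TPM against 67.3 TPM for Tubg1.

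The first comparison set wt/fl Spo11-Cre against wt/fl oocytes, both of which keep a wild-type Kif11 allele. These differ in Spo11-Cre and in the floxed allele that it deletes, which cannot be told apart. Mean Kif11 over all exons in wt/fl Spo11-Cre was 71.2% of wt/fl. None of the 8 genes passed an adjusted p of 0.05 in edgeR, where 2.19% of all genes did. The nearest were Nedd1, Numa1 and Tubg1, whose mean CPM were 81.2%, 67.5% and 78.4% of wt/fl. Nedd1 was at 261, 299, 256 and 251 CPM in the wt/fl libraries and at 217, 221, 224, 220 and 200 CPM in wt/fl Spo11-Cre. All 5 wt/fl Spo11-Cre libraries were below the lowest control, and the log2 fold change was -0.28 (95% interval -0.44 to -0.11, adjusted p = 0.0608 in edgeR).

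Tubg1 was at 58.3, 69.0, 57.8 and 63.3 CPM in wt/fl and at 49.96, 42.6, 52.7, 54.4 and 43.7 CPM in wt/fl Spo11-Cre. These groups did not overlap either, and the log2 fold change was -0.33 (95% interval -0.56 to -0.09, adjusted p = 0.140). Numa1 was at 21.8, 27.3, 17.1 and 21.2 CPM in wt/fl and at 15.0, 15.6, 13.3, 18.1 and 11.8 CPM in wt/fl Spo11-Cre. Here 4 of the 5 wt/fl Spo11-Cre libraries were below the lowest control, and the log2 fold change was -0.54 (95% interval -0.91 to -0.18, adjusted p = 0.109).

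The scaffold genes differed less. The log2 fold change was -0.18 for Pcnt (95% interval -0.37 to -0.00), -0.14 for Cdk5rap2 (-0.42 to 0.14) and -0.12 for Cep192 (-0.42 to 0.18). It was -0.47 for Cep152 (-1.01 to 0.08) and 0.02 for Haus6 (-0.30 to 0.34). Thus 7 of the 8 estimates were negative, with a median of -0.23 over the 8 genes beside 0.03 over all genes tested. For 4 of the 8 the unadjusted p was under 0.05, as for 15% of all genes, and for 2 of the 8 the CPM of all Cre libraries lay below all controls, as for 2.82% of all genes.

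The summed levels of markers of other cells had lower medians in wt/fl Spo11-Cre than in wt/fl, but the groups overlapped. The follicle cell markers together held 84.1 to 126 CPM in wt/fl and 72.0 to 102 CPM in wt/fl Spo11-Cre, and the blood and immune cell markers 25.8 to 38.5 CPM and 20.7 to 27.3 CPM. Of the 11 follicle cell markers tested, 5 had an unadjusted p under 0.05 in edgeR, beside 15% of all genes. Has2, Inha, Fst and Hsd17b1 were lower and Inhba was higher, and none passed after adjustment in edgeR or DESeq2. These 5 were near the floor, each with a median of 0 CPM over the 21 libraries. Has2 had counts in 10 libraries, Inha and Inhba in 9 each, and Fst and Hsd17b1 in 5 each. Pecam1, a marker of endothelial cells, had a log2 fold change of -0.44 (adjusted p = 0.153 in edgeR). Of the 12 oocyte markers, 3 passed in edgeR, beside 2.19% of all genes. The part of these differences in the values of the 8 genes was not tested.

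Whether these genes passed depended on the tool and, for Nedd1, also on the filter and the count table. With DESeq2, Nedd1, Numa1 and Tubg1 were lower in wt/fl Spo11-Cre with adjusted p of 0.00327, 0.0207 and 0.0347, where DESeq2 called 9.94% of the genes to which it gave an adjusted p. In edgeR, Nedd1 also passed with filterByExpr (adjusted p = 0.0434) and with the second count table (0.0454), with log2 fold changes of -0.28 and -0.29. Over 17 alternatives for each gene, which include these and leaving out single libraries, the adjusted p ranged from 0.00327 to 0.295 for Nedd1, from 0.0207 to 0.392 for Numa1 and from 0.0347 to 0.379 for Tubg1. Nedd1 passed in 3 of them and Numa1 and Tubg1 in 1 each.

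**Figure D2:**
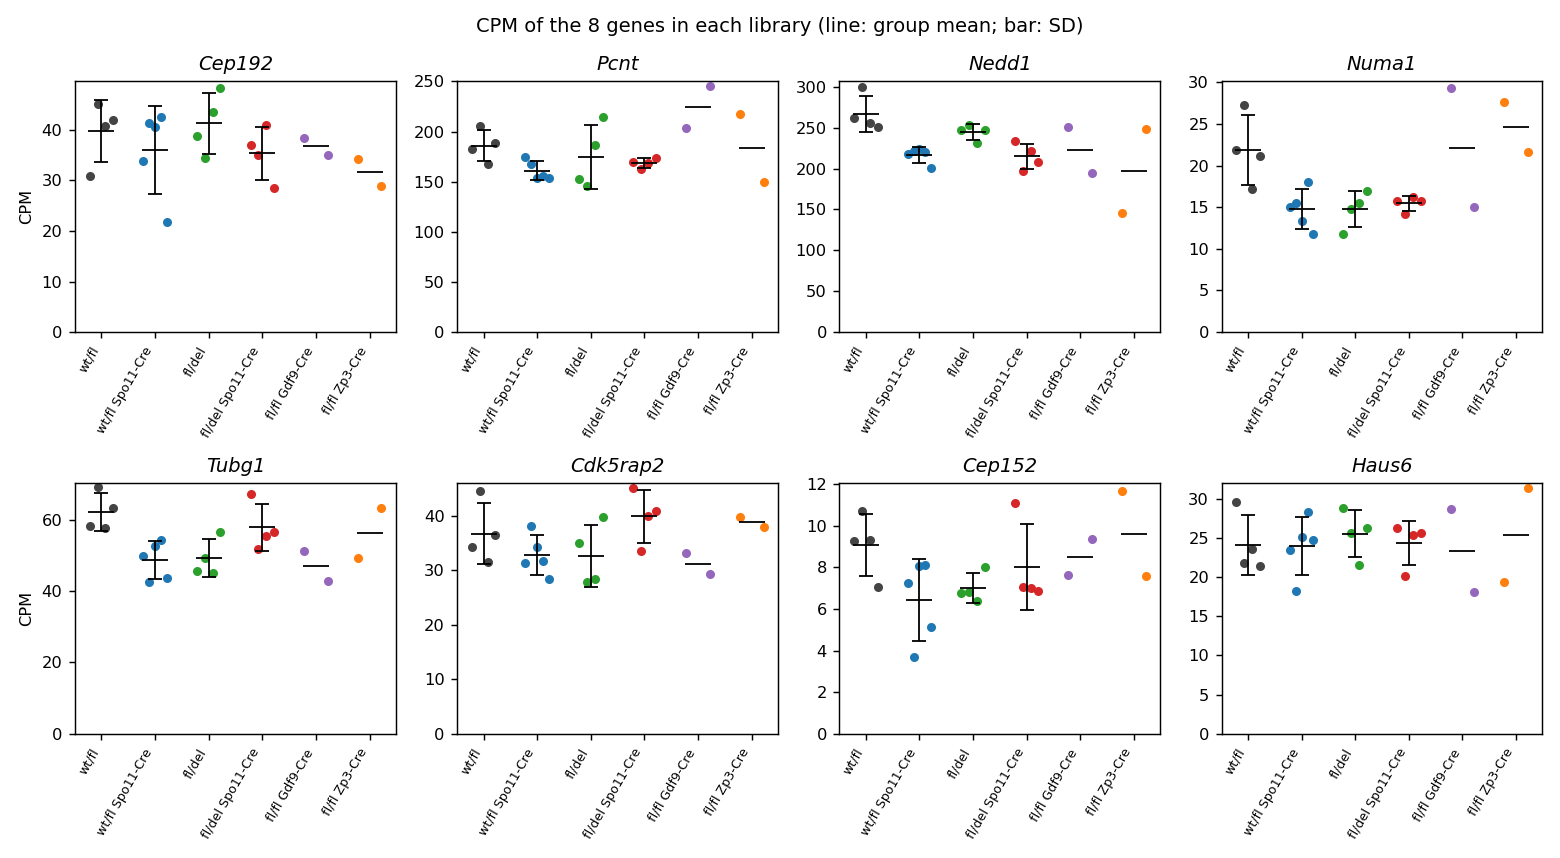
CPM (vertical axis, from 0) of the 8 genes in each of the 21 libraries, grouped by genotype and Cre driver, with the group mean as a line and the SD as a bar where a group has more than 2 libraries. Nedd1 and Tubg1 are lower in all 5 wt/fl Spo11-Cre libraries than in any wt/fl library, Numa1 is lower in all fl/del libraries with and without Spo11-Cre than in any wt/fl library, and the fl/fl libraries are far apart for Nedd1 and Haus6.

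The second comparison concerned oocytes that have lived with a single functional Kif11 allele, fl/del against wt/fl. None of the 8 genes passed the adjusted threshold in edgeR or in DESeq2, where 0.0223% of all genes did in edgeR. For 2 of the 8, Numa1 and Tubg1, the unadjusted p was under 0.05 (8.52% of all genes) and the fl/del libraries lay below all controls (1.77% of all genes).

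Numa1 was at 11.8, 14.7, 15.5 and 16.9 CPM in fl/del, all below the lowest wt/fl library of 17.1 CPM, with a log2 fold change of -0.55 (95% interval -0.94 to -0.16, adjusted p = 0.476 in edgeR). Tubg1 was at 45.7, 49.4, 45.0 and 56.6 CPM in fl/del, below the lowest wt/fl library of 57.8 CPM, with a log2 fold change of -0.32 (95% interval -0.57 to -0.07, adjusted p = 0.550). Nedd1 was at 247, 254, 231 and 248 CPM in fl/del, of which 3 libraries were below the lowest control and 1 was not, with a log2 fold change of -0.11 (95% interval -0.28 to 0.07). The other 5 genes had log2 fold changes between -0.35 for Cep152 and 0.11 for Haus6. The intervals of these 5 included 0, as did that of Nedd1.

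In fl/del Spo11-Cre oocytes, in which Kif11 over all exons was lowest, none of the 8 genes passed in edgeR against wt/fl, where 0.197% of all genes did. Nedd1 was at 233, 197, 221 and 208 CPM, below all 4 controls, with a log2 fold change of -0.32 (95% interval -0.49 to -0.14, adjusted p = 0.115 in edgeR). Numa1 was at 15.7, 14.2, 16.2 and 15.7 CPM, also below all controls, with a log2 fold change of -0.50 (95% interval -0.89 to -0.11, adjusted p = 0.370). These were the 2 of 8 genes with an unadjusted p under 0.05 (10.4% of all genes) and the 2 of 8 whose libraries lay below all controls (1.96% of all genes). With DESeq2, which called 1.42% of the genes with an adjusted p, Nedd1 was lower with an adjusted p of 0.00745, and over its 16 alternatives the adjusted p ranged from 0.00745 to 0.439.

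Tubg1 was at 67.3, 51.9, 55.55 and 56.6 CPM in fl/del Spo11-Cre. Of these, 3 libraries were just below the lowest control and replicate 1 was among the controls, and the log2 fold change was -0.11 (95% interval -0.35 to 0.14). Cdk5rap2 was at 45.2, 33.5, 39.95 and 40.9 CPM against 34.2, 44.5, 31.6 and 36.6 CPM in wt/fl, with a log2 fold change of 0.12 (95% interval -0.18 to 0.41). Cep192, the scaffold protein that recruits Aurora kinase A and Polo-like kinase 1, was at 37.0, 35.0, 40.9 and 28.5 CPM against 30.9, 45.2, 40.8 and 42.0 CPM in wt/fl, with a log2 fold change of -0.17 (95% interval -0.49 to 0.15). Pcnt, Cep152 and Haus6 also had intervals that included 0, with log2 fold changes of -0.14, -0.18 and 0.01.

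**Figure D3:**
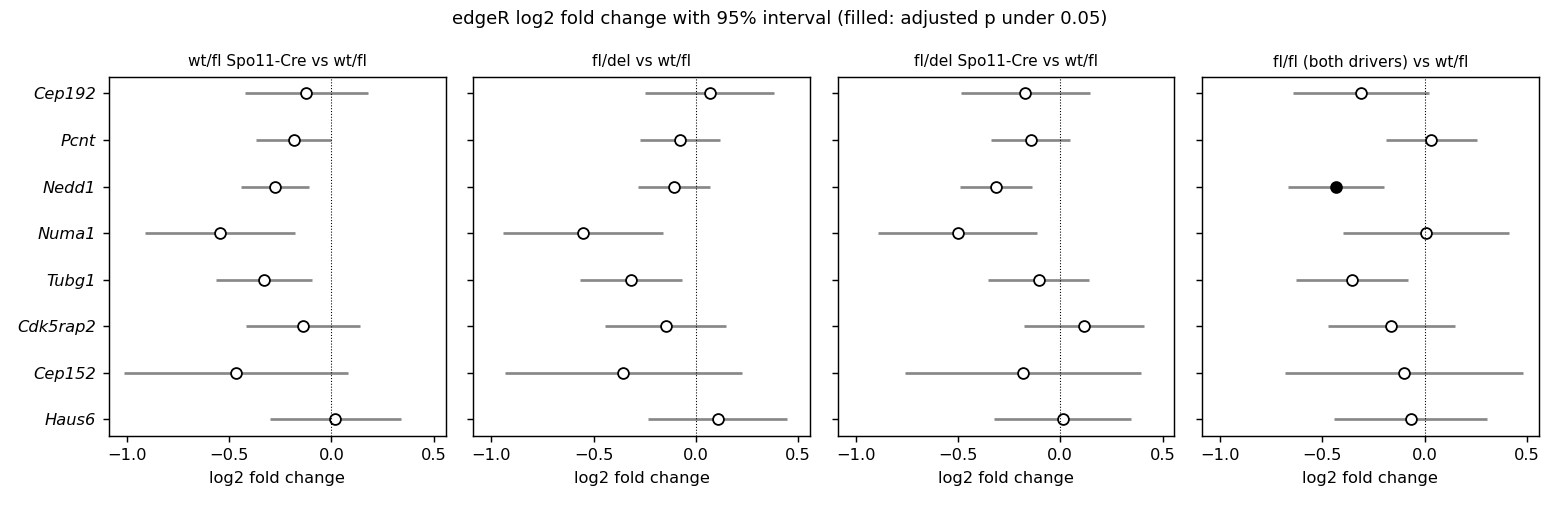
Log2 fold change in edgeR (horizontal axis) of the 8 genes in 4 comparisons against wt/fl, with the 95% interval as a line and a filled point where the adjusted p was under 0.05. All 4 panels share the wt/fl libraries, and Nedd1 in the fl/fl oocytes is the only filled point.

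All of these comparisons share the 4 wt/fl libraries, so that the values against wt/fl are not independent of each other. The comparison between the Cre-carrying genotypes, fl/del Spo11-Cre against wt/fl Spo11-Cre, does not use wt/fl. There, none of the 8 genes passed in edgeR or DESeq2 (0.0357% of all genes in edgeR) and none had an unadjusted p under 0.05, beside 7.11% of all genes. The log2 fold change was -0.04 for Nedd1 (95% interval -0.21 to 0.13), 0.04 for Numa1 (-0.33 to 0.41) and 0.04 for Pcnt (-0.14 to 0.22). It was 0.22 for Tubg1 (-0.01 to 0.46), 0.26 for Cdk5rap2 (-0.02 to 0.53) and 0.29 for Cep152 (-0.26 to 0.83), and it was -0.05 for Cep192 and -0.01 for Haus6.

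Compared with fl/del, fl/del Spo11-Cre differs in Spo11-Cre and in the floxed allele that it deletes. These cannot be told apart, and mean Kif11 was 1.78 CPM against 11.9 CPM in fl/del. In this comparison none of the 8 genes passed in either tool (0.241% of all genes in edgeR). Nedd1 was the 1 gene of 8 with an unadjusted p under 0.05, beside 8.31% of all genes. Its log2 fold change was -0.21 (95% interval -0.39 to -0.03, adjusted p = 0.554 in edgeR), and 3 of the 4 fl/del Spo11-Cre libraries were below all fl/del libraries. The other 7 genes had log2 fold changes between -0.24 for Cep192 and 0.26 for Cdk5rap2, with intervals that included 0.

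The interaction term asked whether the difference with Spo11-Cre, which includes the deletion of the floxed allele, was another in fl/del than in wt/fl oocytes. None of the 8 genes passed in either tool, beside 0.103% of all genes in edgeR. The mean CPM of Tubg1 was 78.4% of wt/fl with Spo11-Cre alone, 79.1% with the del allele alone and 93.2% with both, and its interaction was 0.54 on the log2 scale (95% interval 0.20 to 0.88, adjusted p = 0.219 in edgeR). The interaction was 0.59 for Numa1 (0.06 to 1.13), 0.64 for Cep152 (-0.16 to 1.44), 0.40 for Cdk5rap2 (-0.00 to 0.81) and 0.07 for Nedd1 (-0.17 to 0.31). Thus 2 of the 8, Tubg1 and Numa1, had an unadjusted p under 0.05, beside 10.3% of all genes, and over the alternatives the adjusted p of Tubg1 ranged from 0.0567 to 0.514.

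In fl/fl oocytes, with the Gdf9-Cre and Zp3-Cre libraries averaged, Nedd1 was lower than in wt/fl and the other 7 genes did not pass, beside 2.79% of all genes in edgeR. Nedd1 was at 251 and 194 CPM with Gdf9-Cre and at 145 and 248 CPM with Zp3-Cre, against 251 to 299 CPM in wt/fl. The log2 fold change was -0.43 (95% interval -0.67 to -0.20, adjusted p = 0.0235 in edgeR). In CPM, without the TMM scaling used in edgeR, replicate 1 of Gdf9-Cre and replicate 2 of Zp3-Cre were close to the lowest control. The other 2 fl/fl libraries were well below it. DESeq2 also called Nedd1 and no other of the 8 genes, beside 10.6% of the genes with an adjusted p.

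The size of this difference turned on the fl/fl libraries. Without replicate 1 of Zp3-Cre the log2 fold change was -0.24 (adjusted p = 0.399 in edgeR), without replicate 2 of Gdf9-Cre it was -0.34 (0.199), and without replicate 2 of Zp3-Cre it was -0.67. The call was also lost at a similar fold change without replicate 1 of wt/fl (-0.43, adjusted p = 0.0551) or replicate 2 of wt/fl (-0.38, 0.118), with libraries of the compared groups alone (-0.42, 0.186) and with libraries of a shared name prefix summed (-0.44, 0.189). In the last 2 settings the SE was 0.15, beside 0.12. Over all 16 alternatives the adjusted p ranged from 1.99e-05 to 0.399, and Nedd1 passed in 10.

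**Figure D4:**
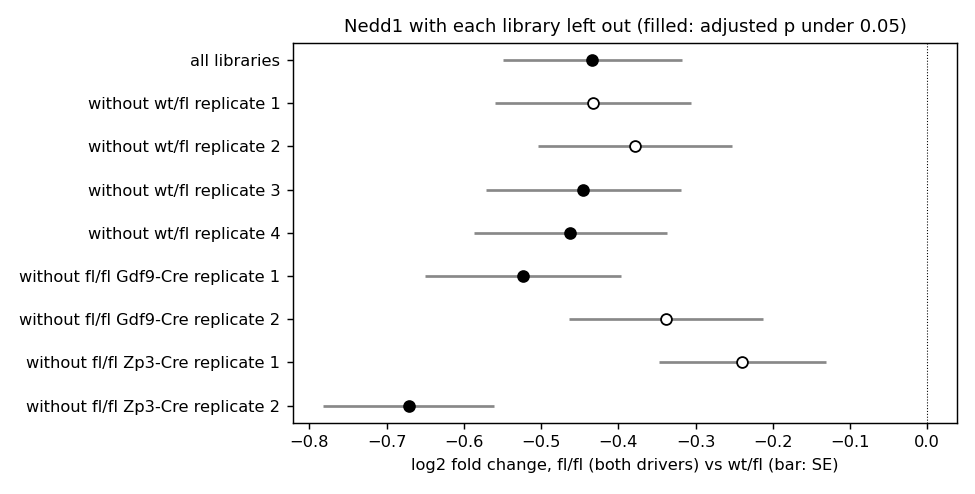
Log2 fold change of Nedd1 in fl/fl oocytes against wt/fl (horizontal axis, with the SE as a line), with all libraries and with each of the 8 libraries of the comparison left out in turn. Points are filled where the adjusted p in edgeR was under 0.05. The estimate lies between -0.67 and -0.24, and 4 of the 8 points with a library left out are filled.

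The totals of the fl/fl libraries were between 7801470 and 10759741, below those of the other libraries except replicate 3 of fl/del (7205010), and their TMM factors were between 1.03 and 1.10 beside 0.96 to 1.02 in the other 17 libraries. Of the 12 oocyte markers, Zp1 and Zp3 were lower in fl/fl than in wt/fl (log2 fold changes -0.47 and -0.32). The part of these differences in the result was not tested.

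Tubg1 was at 51.2 and 42.9 CPM with Gdf9-Cre and at 49.2 and 63.3 CPM with Zp3-Cre, with a log2 fold change against wt/fl of -0.36 (95% interval -0.63 to -0.08, adjusted p = 0.173 in edgeR). In all, 3 of the 4 libraries were below all controls. Without replicate 2 of Zp3-Cre, the value was -0.47 with an adjusted p of 0.0419, and over its 16 alternatives the adjusted p ranged from 0.0419 to 0.593. Numa1 was at 29.3 and 15.0 CPM with Gdf9-Cre and at 27.7 and 21.6 CPM with Zp3-Cre and gave a log2 fold change of 0.01 (95% interval -0.40 to 0.41). These Numa1 levels reached from below to above those of the controls.

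Cep192 was at 38.5 and 35.0 CPM with Gdf9-Cre and at 34.2 and 28.9 CPM with Zp3-Cre, with a log2 fold change of -0.31 (95% interval -0.64 to 0.02). The log2 fold change was 0.03 for Pcnt, -0.16 for Cdk5rap2, -0.10 for Cep152 and -0.07 for Haus6, with intervals that included 0. Over the 8 genes the median was -0.13, beside -0.03 over all genes, and 2 of the 8 had an unadjusted p under 0.05, beside 14.3% of all genes. For none of the 8 were the CPM of the groups without overlap, beside 6.14% of all genes. These CPM lack the TMM scaling of the fold changes, which lowers the fl/fl levels relative to wt/fl. Overlap after that scaling was not examined.

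Against fl/del Spo11-Cre, in which both Kif11 alleles are also lost but earlier, no gene of the 8 passed in either tool, beside 2.9% of all genes in edgeR. The largest difference was that of Numa1, with a log2 fold change of 0.51 (95% interval 0.10 to 0.92, adjusted p = 0.202 in edgeR, with a range from 0.0542 to 0.727 over 16 alternatives) and 3 of the 4 fl/fl libraries above all fl/del Spo11-Cre libraries. It was the 1 gene with an unadjusted p under 0.05, beside 14% of all genes. The log2 fold change was -0.12 for Nedd1 (-0.35 to 0.12) and -0.25 for Tubg1 (-0.52 to 0.02). Without replicate 2 of Zp3-Cre, that of Nedd1 was -0.36 with an adjusted p of 0.0361, and over its 16 alternatives the adjusted p ranged from 0.0361 to 0.998.

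Between the drivers, Zp3-Cre against Gdf9-Cre, none of the 8 genes passed in either tool, beside 0.891% of all genes in edgeR. Pcnt was at 203 and 245 CPM with Gdf9-Cre and at 218 and 149 CPM with Zp3-Cre, with a log2 fold change of -0.33 (95% interval -0.65 to -0.02, adjusted p = 0.643 in edgeR), and was the 1 gene with an unadjusted p under 0.05 (7.14% of all genes). Cep192 was lower in both Zp3-Cre libraries than in both Gdf9-Cre libraries, and Cdk5rap2 was higher, at 39.9 and 38.0 CPM against 33.1 and 29.3 CPM. With 2 libraries per driver, 27.7% of all genes did not overlap. Nedd1 had a log2 fold change of -0.20 (95% interval -0.53 to 0.13, adjusted p = 0.814 in edgeR). It was 0.16 without replicate 1 of Zp3-Cre and -0.70 without replicate 2 (adjusted p = 0.0153), each of which leaves 1 Zp3-Cre library, assumed to vary like those of the other groups. Over its 12 alternatives the adjusted p ranged from 0.0153 to 1.

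Across libraries the 8 genes did not vary as a block. Over the 28 pairs of genes, Pearson's r of log2 CPM in the 21 libraries had a median of 0.23 and ranged from -0.57 for Pcnt and Haus6 to 0.63 for Tubg1 and Cdk5rap2. Nedd1 varied with Tubg1 (r = 0.56, Spearman's rho = 0.56) and with Haus6 (r = 0.54, rho = 0.47). With the group means taken away these values were 0.73 and 0.66, and that of Pcnt and Haus6 was -0.64 (rho without this step = -0.50). Leaving out the 2 libraries with the most extreme level of the first gene of each pair gave 0.45 for Nedd1 and Tubg1, 0.54 for Nedd1 and Haus6 and -0.53 for Pcnt and Haus6. These correlations are given as a description, since the libraries share mice, totals and scaling.

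Within the fl/fl libraries these genes differed in the same directions. The Gdf9-Cre and Zp3-Cre libraries with low Nedd1 (194 and 145 CPM) had 18.1 and 19.4 CPM of Haus6 and 245 and 218 CPM of Pcnt. The libraries with high Nedd1 (251 and 248 CPM) had 28.7 and 31.4 CPM of Haus6 and 203 and 149 CPM of Pcnt. The 2 Zp3-Cre libraries thus differed more from each other in each of these 3 genes than the 6 group means did.

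**Figure D5:**
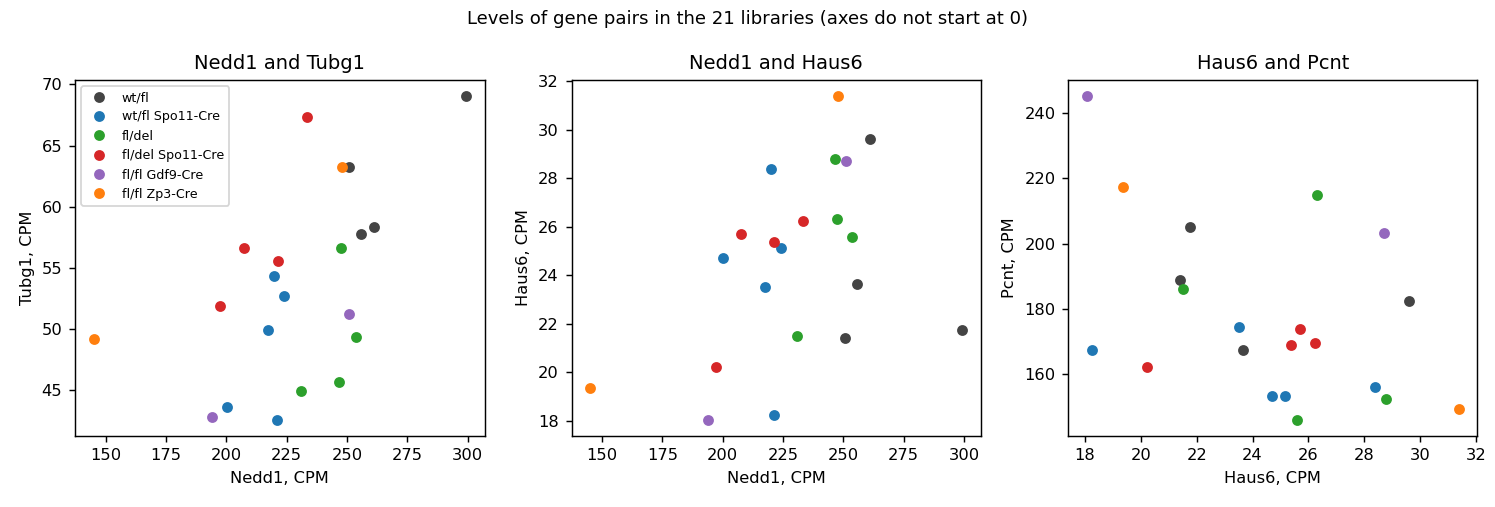
CPM of 3 pairs of genes in the 21 libraries, with 1 point per library coloured by genotype and Cre driver and axes that do not start at 0. Nedd1 and Tubg1 and Nedd1 and Haus6 vary together (r = 0.56 and 0.54 on the log2 scale), whereas Pcnt is lower where Haus6 is higher (r = -0.57).

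Among 8524 genes with a mean count of at least 100, the gene whose pattern over the 21 libraries was most like that of Tubg1 was Cdc20 (r = 0.94), the activator of the anaphase-promoting complex, followed by Abhd4 (0.90) and Psmd5 (0.88). For Nedd1 it was Ncapg (0.93), a subunit of condensin I, followed by Me1 (0.90) and Oas1d (0.90). For Pcnt the genes were Brd1 (0.86), Topbp1 (0.79) and Sf3b2 (0.77), and for Numa1 they were Cry1 (0.82), Smarcd2 (0.79) and Nek2 (0.78), the last a kinase of centrosome separation. The most alike gene was Zfp960 for Haus6 (0.81), Cbfa2t2 for Cdk5rap2 (0.80), Dhx16 for Cep192 (0.74) and Gys1 for Cep152 (0.71). Cep152, the transcript with the fewest counts, had the lowest of these values. All these genes were picked for a high r among 8524 genes over only 21 libraries, and no value was tested. With the group means taken away, r was 0.90 for Cdc20, 0.95 for Ncapg, 0.80 for Brd1 and 0.68 for Cry1. It was 0.82 for Zfp960, 0.77 for Cbfa2t2, 0.82 for Dhx16 and 0.66 for Gys1.

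The 52 other genes of spindle poles and centrioles that were examined held few calls. All 52 were tested. Against wt/fl, 2 were lower in wt/fl Spo11-Cre, Tubg2 and Plk4, beside 1.33% of all genes that were lower. Tubg2, the gamma-tubulin paralogue, was at 108, 122, 102 and 150 CPM in wt/fl and at 77.8, 80.0, 98.4, 93.2 and 81.4 CPM in wt/fl Spo11-Cre, without overlap, and its log2 fold change was -0.46 (95% interval -0.68 to -0.24, adjusted p = 0.0100 in edgeR). Plk4, the kinase that starts centriole duplication, was at 143 ± 13.99 CPM (SD, n = 4) in wt/fl and 106 ± 16.7 CPM (n = 5) in wt/fl Spo11-Cre, with a log2 fold change of -0.41 and an adjusted p of 0.0178 in edgeR. The call for Tubg2 was lost without replicate 4 of wt/fl (-0.33, adjusted p = 0.138), and that for Plk4 without replicate 3 of wt/fl (0.0868) or replicate 5 of wt/fl Spo11-Cre (0.0898). Of the 12 oocyte markers, Nobox and Zp1 were lower and Ooep was higher in the same comparison, and the part of this in the result for Tubg2 and Plk4 was not tested.

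None of the 52 passed in edgeR or DESeq2 in fl/del against wt/fl, in fl/del Spo11-Cre against wt/fl, against wt/fl Spo11-Cre or against fl/del, or in the interaction. In this order, 6, 4, 6, 4 and 9 of the 52 had an unadjusted p under 0.05 in edgeR, beside 8.52%, 10.4%, 7.11%, 8.31% and 10.3% of all genes. In fl/fl against wt/fl, 2 were lower, beside 1.77% of all genes. These were Odf2, a protein of centriolar appendages (98.1 ± 31.4 against 131 ± 11.7 CPM, SD, n = 4 each, log2 fold change -0.51, adjusted p = 0.0200 in edgeR), and Tacc3, which with Ckap5 stabilizes spindle microtubules (1999 ± 588 against 2487 ± 246 CPM, log2 fold change -0.40, adjusted p = 0.0443). Without replicate 1 of Zp3-Cre the adjusted p was 0.332 for Odf2 and 0.549 for Tacc3, and without replicate 2 of Gdf9-Cre it was 0.272 and 0.312. Odf2 was also lost without replicate 4 of wt/fl, and Tacc3 without replicate 2, 3 or 4 of wt/fl and with DESeq2 (0.0525). Ccp110, a cap of centriole ends, was higher in fl/fl than in fl/del Spo11-Cre (31.5 ± 6.73 against 19.2 ± 1.33 CPM, log2 fold change 0.61, adjusted p = 0.0478), where 1.21% of all genes were higher. This call held in 4 of 16 alternatives, with adjusted p from 0.00715 to 0.217, and leaving out any library except replicate 2 of Zp3-Cre ended it.

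Akap9, a scaffold of pericentriolar material, and the microtubule polymerase Ckap5 were lower with Zp3-Cre than with Gdf9-Cre, where 0.586% of all genes were lower. Their log2 fold changes were -0.87 and -0.65, with adjusted p of 0.00528 and 0.0264 in edgeR. Akap9 was lost without replicate 2 of Zp3-Cre (0.0760), Ckap5 without replicate 1 or 2 of Gdf9-Cre or replicate 1 of Zp3-Cre (0.106 to 0.212), and both in a fit limited to the 4 fl/fl libraries.

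By role, the lists are described by their medians without a test. The median farthest below that of all genes was that of the gamma-tubulin complex in wt/fl Spo11-Cre, picked from all lists and comparisons. In that list 1 of the 8 genes, Tubg2, had an unadjusted p under 0.05 in edgeR, beside 15% of all genes. In wt/fl Spo11-Cre against wt/fl, the median log2 fold change was -0.28 over the 8 other genes of the gamma-tubulin complex, -0.09 over the 7 other augmin genes, 0.10 over the 12 genes of pericentriolar material, -0.07 over the 12 genes of pole focusing and minus ends, and -0.12 over the 13 genes of centriole assembly, beside 0.03 over all genes. In fl/del against wt/fl the same medians were -0.14, -0.00, -0.04, 0.01 and -0.05, beside 0 over all genes. In fl/del Spo11-Cre against wt/fl they were -0.08, 0.02, -0.04, -0.10 and 0.02, beside 0.01 over all genes. In fl/fl against wt/fl they were 0.01, -0.04, -0.17, 0.04 and -0.14, beside -0.03.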

How the data were processed

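Poly(A) RNA of 3 oocytes per library was amplified as full-length cDNA and sequenced in paired reads of 150 bases. According to the methods and the submitters' processing notes, reads were trimmed (fastp) and aligned to GRCm38 (HISAT2 2.2.1), and uniquely mapped reads were counted by the authors with featureCounts 2.0.3 on Ensembl release 93. The deposited counts are raw, per gene, and the deposited TPM were made by the authors in a way not given in the sources used here. A second count table, in which Kif11 was counted over exon 22, was an alternative. It held lower counts for other genes as well, with all-exon counts 1.94 times as high (median of 14567 genes). Whether single reads or read pairs were counted in each is not stated. The 3 other tables were not used here.

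CPM are counts divided by the library total, times 1000000. GENCODE M21 gave symbols and coordinates. Groups, taken from the labels, were compared with edgeR 4.0.16 in R 4.3.3 (quasi-likelihood test, TMM, a nonzero count required in 3 libraries, Benjamini-Hochberg adjustment over all genes tested), in 1 fit of the 17 libraries of the Spo11-Cre background and 1 of all 21 for fl/fl. Correlations used log2(TMM CPM + 1). Alternatives were DESeq2 1.42.0, RLE factors, no filter, filterByExpr, only the compared groups, a replicate block, libraries of a shared name prefix summed, the second table, and each library left out. The code was tested on simulated data. The members and lists were chosen with earlier results of these data known. Named genes are the members, Kif11, listed genes that passed, and the 3 genes most alike to each member. Python 3.11.15 was used for the other steps.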

Additional observations from a re-analysis of the deposited data

Results flagged for a closer look

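In groups of 4 or 5 libraries, 3 levels of the 8 genes stood apart from the others of their group by Dixon's criterion, among 32 groups examined, where chance gives about 1 in 20 (1.6 of 32). Nedd1 was at 200.2 CPM in replicate 5 of wt/fl Spo11-Cre, beside 217 to 224 CPM in the other 4 libraries. Cep152 was at 11.1 CPM in replicate 1 of fl/del Spo11-Cre, beside 6.84 to 7.07 CPM. Haus6 was at 20.2 CPM in replicate 2 of fl/del Spo11-Cre, beside 25.4 to 26.2 CPM. By the same criterion the total count of replicate 3 of fl/del, 7205010, stood below the other 3 libraries of that group, which had between 15635115 and 16836618 counts.

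Between the drivers of fl/fl oocytes, 2 of the 52 other spindle pole and centriole genes differed. The log2 fold change of Zp3-Cre against Gdf9-Cre was -0.87 for Akap9 (adjusted p = 0.00528 in edgeR) and -0.65 for Ckap5 (adjusted p = 0.0264), with 2 libraries per driver. Akap9 was at 33.0 and 43.3 CPM with Zp3-Cre and at 66.2 and 69.6 CPM with Gdf9-Cre.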

How the results depend on the processing

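Each comparison was recomputed with 8 other settings and with each library left out. In the 17-library comparisons, in the order wt/fl Spo11-Cre, fl/del and fl/del Spo11-Cre against wt/fl, fl/del Spo11-Cre against wt/fl Spo11-Cre and against fl/del, and the interaction, DESeq2 called 931, 21, 158, 14, 91 and 74 genes, and no filter on low counts gave 742, 80, 185, 39, 134 and 138, beside 491, 5, 44, 8, 54 and 23 as reported. With filterByExpr, the second, the third, the fourth and the last of these gave 2, 29, 4 and 2. The second count table gave 82 genes in fl/del Spo11-Cre against wt/fl and 42 in the interaction, where summed prefixes gave 11. For fl/fl against wt/fl, fl/fl against fl/del Spo11-Cre and Zp3-Cre against Gdf9-Cre, DESeq2 called 1075, 1065 and 381 genes, and the compared groups alone gave 238, 320 and 7, beside 647, 673 and 207. Summed prefixes gave 233 and 299 in the first 2 of these.

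Of the 8 genes, DESeq2 called 3, filterByExpr 1 and the second set of counts 1 in wt/fl Spo11-Cre against wt/fl, and DESeq2 called 1 in fl/del Spo11-Cre against wt/fl, beside 0. In fl/fl against wt/fl, the compared groups alone and summed prefixes called 0 beside 1. Of the 52 others, DESeq2 called 4, RLE factors and filterByExpr 1 each, and the compared groups alone and summed prefixes 0 in fl/fl against wt/fl, beside 2. In fl/fl against fl/del Spo11-Cre, DESeq2 called 5, RLE factors 2 and no filter 3, and the second set of counts, the compared groups alone and summed prefixes called 0, beside 1. In Zp3-Cre against Gdf9-Cre the compared groups alone called 0, beside 2.

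With single libraries left out, the genes called ranged from 178 to 575, from 1 to 18 and from 30 to 71 in the first 3 comparisons, from 3 to 12 in fl/del Spo11-Cre against wt/fl Spo11-Cre, 4 to 60 in the interaction, 303 to 1353 in fl/fl against wt/fl, 416 to 1263 in fl/fl against fl/del Spo11-Cre, and 127 to 398 between the drivers. The 8 genes gave 0 to 2 calls in fl/fl against wt/fl, 0 to 1 against fl/del Spo11-Cre and 0 to 1 between the drivers. The 52 others gave 1 to 3 in wt/fl Spo11-Cre against wt/fl, 0 to 6 in fl/fl against wt/fl, 0 to 5 in fl/fl against fl/del Spo11-Cre and 1 to 2 between the drivers. The libraries that moved a count of all genes by the most were replicate 2 of wt/fl for wt/fl Spo11-Cre (178), replicate 1 of fl/del (18) and replicate 3 of fl/del (1) for fl/del, and replicate 2 of Zp3-Cre for the 3 comparisons of fl/fl (1353, 1263 and 398).

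Replicate numbers did not pair the libraries: of 42 pairs with the same number, 8 had a correlation of deviations over 0.1 (range -0.30 to 0.25), and 4 of 21 libraries correlated best with their own number. A replicate block gave 96 genes for fl/del against wt/fl, 230 with Spo11-Cre in that genotype (also against wt/fl), 29 in fl/del Spo11-Cre against wt/fl Spo11-Cre, 143 against fl/del and 96 in the interaction, and 2 of the 52 others in fl/fl against fl/del Spo11-Cre. With the block, the log2 fold change changed sign for Cep192 (0.0097) and Haus6 (-0.0033) in wt/fl Spo11-Cre against wt/fl, for Numa1 (-0.010) and Haus6 (0.016) in fl/del Spo11-Cre against wt/fl Spo11-Cre, and for Numa1 in fl/fl against wt/fl (-0.0047).

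Other sign changes were those of Haus6 in fl/del Spo11-Cre against wt/fl with summed prefixes (-0.0090) and with the second table (-0.012), Cep192 in fl/del Spo11-Cre against wt/fl Spo11-Cre with summed prefixes (0.058), and Numa1 in fl/fl against wt/fl with the second table (-0.015). None of these values passed under either setting, and the cause was not tested. Of 72 log2 fold changes of the 8 genes, 9 values over the 8 other settings changed sign, 6 passed that had not and 2 no longer did, and 559 kept direction and call.

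With single libraries left out, the log2 fold change of these genes took both signs. In wt/fl Spo11-Cre against wt/fl the range was for Cep192 from -0.23 to 0.0069 and for Haus6 from -0.043 to 0.13. In fl/del against wt/fl the range was for Cep192 from -0.036 to 0.14. In fl/del Spo11-Cre against wt/fl the range was for Haus6 from -0.039 to 0.12. In fl/del Spo11-Cre against wt/fl Spo11-Cre the range was for Cep192 from -0.18 to 0.048, Numa1 from -0.020 to 0.12 and for Haus6 from -0.090 to 0.069. In fl/del Spo11-Cre against fl/del the range was for Pcnt from -0.13 to 0.033, Numa1 from -0.040 to 0.11 and for Cep152 from -0.032 to 0.25. In fl/fl against wt/fl the range was for Pcnt from -0.079 to 0.15, Numa1 from -0.26 to 0.22, Cep152 from -0.23 to 0.031 and for Haus6 from -0.28 to 0.11. In fl/fl against fl/del Spo11-Cre the range was for Nedd1 from -0.36 to 0.073, Cep152 from -0.055 to 0.30 and for Haus6 from -0.29 to 0.10. In Zp3-Cre against Gdf9-Cre the range was for Nedd1 from -0.70 to 0.16, Numa1 from -0.29 to 0.67, Tubg1 from -0.018 to 0.44, Cep152 from -0.15 to 0.38 and for Haus6 from -0.36 to 0.47.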
